A study of Macaca mulatta with 12 samples.

Results

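Genes of smooth muscle and of actomyosin contraction were followed in the corpus luteum, the short-lived progesterone gland left by ovulation. Members were chosen by gene symbol, without a criterion on measured level, but with earlier results of these data known. They comprised myosin heavy chains (MYH), myosin light chains and their kinases (MYL), tropomyosins (TPM), calponins (CNN), actins, alpha-actinins (ACTN), transgelins (TAGLN), caldesmon (CALD1), leiomodins (LMOD), PDZ and LIM domain proteins (PDLIM), synaptopodins (SYNPO), and DES, MCAM, CSPG4, VIM and SMTN. Of 14132 genes with a single symbol on the array, 54 belonged to this set, and they were covered by 117 of the 52707 probe sets tested. Each gene was represented by its brightest probe set, the one with the highest mean over all arrays.

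Contraction of smooth muscle rests on myosin pulling along actin filaments. Calcium bound to calmodulin activates myosin light chain kinase, which phosphorylates the regulatory light chain until the myosin phosphatase removes the phosphate. Tropomyosin, caldesmon, calponin and transgelin lie along the actin filament, and non-muscle isoforms of the same families build the cortex and stress fibres of nearly every cell. In the corpus luteum the muscle isoforms are known from the walls of arterioles and from the pericytes that surround the dense capillary bed.

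The glands came from female rhesus macaques with normal menstrual cycles, 1 array per gland. The 4 mid-late glands were taken on days 10 to 12 after the LH surge and served as the baseline. All late glands were taken on days 14 to 16, on which the 4 called late functional had more than 1.5 ng/ml of progesterone in serum and the 4 called late regressed less than 0.5 ng/ml. RNA came from the frozen whole gland, so every cell type of the gland contributed to it. Levels are log2 array values, given per array or as mean ± SD (n = 4). A difference is that of 2 group means on the log2 scale, with its standard error (SE) from limma. A gene was called when its adjusted p was below 0.05. Both late groups were compared with the same mid-late arrays.

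Late regressed arrays 2 and 3 stood apart from the other 10. The mean over 5 measured genes of luteal steroid synthesis was 8.92 on array 2 and 8.77 on array 3, against 10.65 on array 1 and 10.23 on array 4 of that group, 10.95 to 11.51 on late functional and 11.37 to 11.69 on mid-late arrays. The control probe sets at the 3′ end exceeded those at the 5′ end most on array 2, by 2.52, where the other arrays lay between 0.46 and 0.70. The array carries 674 mostly dim probe sets with the prefix NC, and what they target is not stated in the labels. They averaged 3.69 ± 0.05 on mid-late arrays, and on the late ones 3.57 ± 0.04 (functional) and 3.55 ± 0.05 (regressed). The lower mean in either late group had the smallest p that 4 against 4 arrays allow (exact two-sided permutation p = 0.0286). A gene whose mean exceeded 4.64, the 95th percentile of those probe sets, in at least 1 group is called measurable here, and 33 of the 54 members were. Array 2 was the late regressed array farthest from the mid-late mean for 15 of these 33 (45.5%) and array 3 for 10 (30.3%), shares that were 43.3% and 32.9% over all 9744 measurable genes.

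All 13 measured genes of the smooth muscle contractile apparatus were measurable, with group means from 5.82 to 12.01, as were both pericyte genes. Of 15 broadly expressed genes, 14 were measurable, the exception being the non-muscle heavy chain MYH14. Only 3 of 23 striated muscle genes were (MYH7B, MYL2 and MYLK2). MYL11, by name a fast skeletal light chain, was counted apart from them and was measurable, with group means from 9.09 to 9.39. ACTA2, MYLK and DES, the classic smooth muscle actin, kinase and desmin genes, are not analysed here, because no probe set carried them as a single symbol.

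In late regressed against mid-late glands, SYNPO2 rose and PDLIM3, PDLIM5, MCAM and 4 dim striated muscle genes (MYL4, MYH6, MYL7 and ACTN3) fell, while the other 46 members did not pass. The 8 called members were 14.8% of 54, close to the 13.1% of all genes that were called (7.6% higher and 5.51% lower), so the count itself is not a result about the members. Among measurable genes the share was 4 of 33 members (12.1%) against 16.5% of all. The median difference was -0.14 over the members and -0.02 over all genes. Arrays of the groups did not overlap for 14 members, against 20.7% of all genes, and 21 members had an unadjusted p below 0.05, against 35.8%. The call count fell to 2 without mid-late array 1 or 2, to 3 without mid-late array 3, to 4 without late functional array 1 or late regressed array 3, and to 5 without late functional array 2 or 3 or late regressed array 2. Without late regressed arrays 2 and 3 together it was 1, PDLIM5. In bulk tissue, fewer cells of a type and less RNA per cell cannot be told apart.

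**Figure D1:**
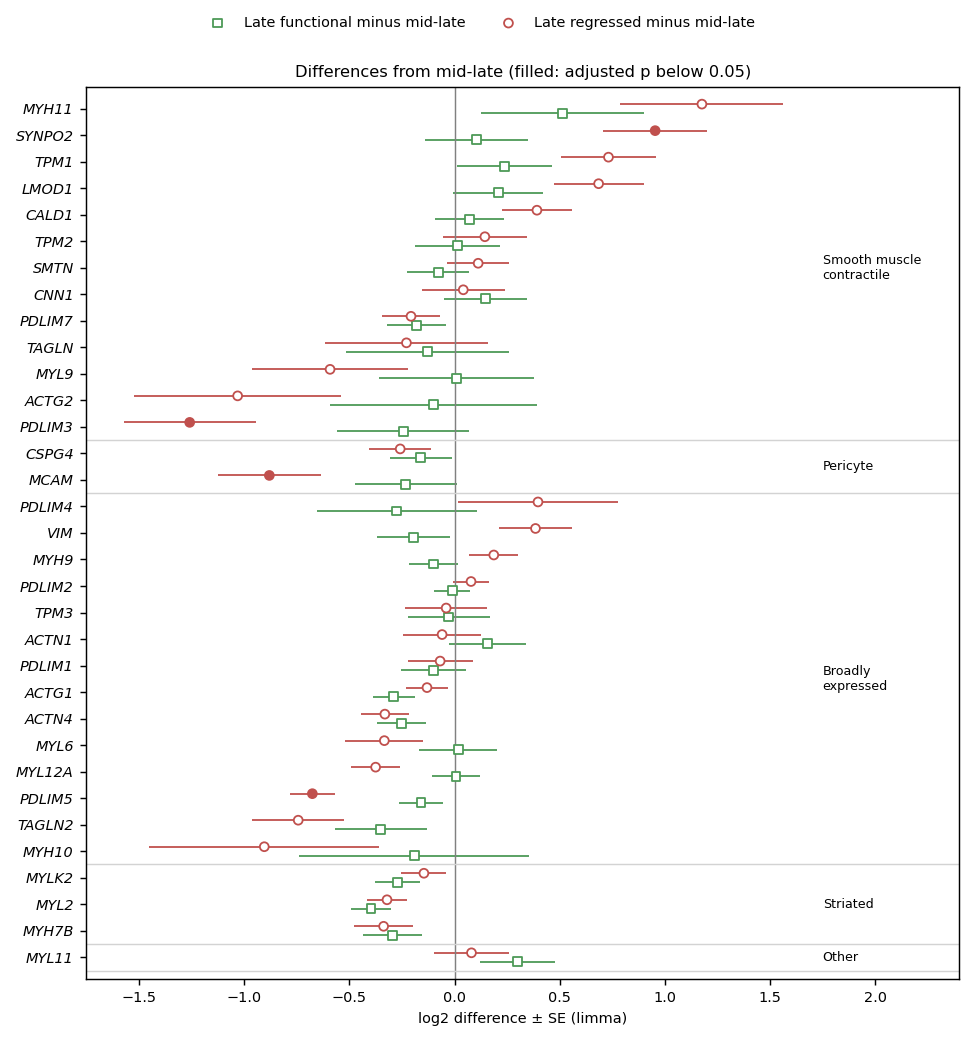
Log2 difference from mid-late (horizontal axis, limma estimate ± SE) of the 33 measurable members, grouped by role, with circles for late regressed and squares for late functional glands. Filled symbols had an adjusted p below 0.05: SYNPO2 to the right of 0, and PDLIM3, MCAM and PDLIM5 to the left of it, all for late regressed glands.

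Filament and filament-binding genes of smooth muscle did not move together. Of the 13, 1 rose (SYNPO2), 1 fell (PDLIM3) and 11 did not pass. The called share, 15.4%, was close to the 16.5% of all measurable genes. Of the differences, 8 were above 0 and 5 below 0, with a median of 0.11. The differences spanned from -1.26 for PDLIM3 to 1.18 for MYH11.

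MYH11, the smooth muscle myosin heavy chain, was at 8.32, 8.15, 8.39 and 9.48 on the mid-late arrays, at 8.78, 8.78, 9.56 and 9.27 on the late functional arrays and at 9.70, 10.84, 9.59 and 8.91 on the late regressed arrays. Mid-late array 4 lay within the late regressed range, so the groups overlapped through that gland. The difference of late regressed from mid-late was 1.18 (SE 0.39, 2.26-fold, adjusted p = 0.0725) and did not pass. It passed without mid-late array 4 (0.0426) or late regressed array 4 (0.034), and without late regressed arrays 2 and 3 it was 0.72 (0.301). Its 3 measurable probe sets had differences of 1.18, 1.16 and 1.35, and the other one, not measurable in any group, -0.31 (adjusted p = 0.0447). The probe set at 1.35 was called (adjusted p = 0.0367), but not in 5 of the 12 fits without 1 array, namely mid-late 1, 2 or 3 or late regressed 2 or 3 (0.0738 to 0.0966), and without late regressed arrays 2 and 3 it was at 1.10 (0.189).

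SYNPO2 encodes synaptopodin 2, or myopodin, an actin-bundling protein of smooth and striated muscle. It was at 5.61, 5.70, 5.69 and 6.27 in mid-late, 5.82, 6.11, 6.05 and 5.71 in late functional and 6.50, 7.56, 6.79 and 6.24 in late regressed glands. All late regressed arrays lay above all late functional ones, and only mid-late array 4 reached into the late regressed range. The rise over mid-late was 0.95 (SE 0.25, 1.94-fold, adjusted p = 0.0349). The call was lost without mid-late array 1 (0.0893), 2 (0.0858) or 3 (0.0765), late functional array 1 (0.0503) or 3 (0.0506) or late regressed array 3 (0.0766), and the difference was 0.55 (0.137) without late regressed arrays 2 and 3. Its other probe set was not measurable (-0.09), and the mean over both differed by 0.43 (0.087). The difference from late functional glands, 0.85, did not pass (adjusted p = 0.245).

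LMOD1, a leiomodin that starts actin filaments in smooth muscle, was at 5.99, 5.75, 5.61 and 5.98 in mid-late, 5.91, 5.84, 6.26 and 6.13 in late functional and 6.83, 6.62, 6.86 and 5.76 in late regressed glands. Of the late regressed glands, 3 lay above every other gland and array 4 lay among the mid-late ones. The difference from mid-late was 0.68 (SE 0.21, adjusted p = 0.0622), and it passed only without that array 4 (0.00914). Without late regressed arrays 2 and 3 it was 0.46 (0.321). The mean over the 4 measured smooth muscle markers MYH11, TAGLN, CNN1 and LMOD1 was likewise lowest on late regressed array 4, at 7.37, against 8.14 to 8.48 on the other 3, 7.64 to 8.33 on late functional and 7.45 to 8.14 on mid-late arrays. No marker of that list was called.

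TPM1, the alpha tropomyosin, was at 10.06, 9.50, 9.92 and 9.80 in mid-late, 9.80, 9.92, 10.21 and 10.31 in late functional and 10.27, 11.32, 10.34 and 10.28 in late regressed glands. The lowest late regressed array lay above the highest mid-late one. The difference was 0.73 (SE 0.22, adjusted p = 0.0591) and passed without late regressed array 1 (0.0442). It also passed with the low-signal filter (0.0472) and when the 3′ to 5′ difference entered the fit, where it was 0.53 (0.0433). Without late regressed arrays 2 and 3 it was 0.45 (0.174). Of its 5 probe sets, 4 had differences from 0.40 to 0.73 with no overlap between the groups, and the other was at -0.04.

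CALD1, caldesmon, which restrains myosin on the actin filament, was at 10.35, 9.98, 10.28 and 10.42 in mid-late, 10.33, 10.49, 10.40 and 10.09 in late functional and 10.61, 11.12, 10.61 and 10.26 in late regressed glands. Late regressed array 4 again lay within the mid-late range. The difference was 0.39 (SE 0.16, adjusted p = 0.137). Of its 6 probe sets, all measurable, 5 had differences between 0.39 and 0.53 and the other 0.07. The second brightest (0.53, adjusted p = 0.0401) and the dimmest (0.50, adjusted p = 0.0348) were called, in 3 and 4 of the 12 fits without 1 array (adjusted p up to 0.103 and 0.0791 in the others), and without late regressed arrays 2 and 3 these differences were 0.32 (0.197) and 0.36 (0.171). The mean over the 6 probe sets passed narrowly, at 0.41 (0.0495).

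TAGLN, CNN1, SMTN and MYL9 did not pass either. TAGLN, transgelin or SM22, was at 10.10, 10.09, 10.26 and 10.76 in mid-late, 10.21, 10.38, 10.81 and 9.29 in late functional and 10.84, 10.11, 10.38 and 8.96 in late regressed glands. Its lowest values were those of array 4 in either late group, and the difference was -0.23 (SE 0.39, adjusted p = 0.732). CNN1, calponin 1, was at 6.01 ± 0.24, 6.16 ± 0.36 and 6.05 ± 0.31 in mid-late, late functional and late regressed glands (late regressed minus mid-late 0.04, SE 0.20, adjusted p = 0.909). SMTN, smoothelin, was at 7.36 ± 0.10, 7.29 ± 0.05 and 7.48 ± 0.37 (0.11, SE 0.15, adjusted p = 0.646), and its second brightest probe set differed by 0.39 (adjusted p = 0.0953).

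MYL9, the regulatory light chain of smooth muscle, was at 12.16, 12.22, 11.74 and 11.90 in mid-late, 11.81, 11.87, 11.90 and 12.47 in late functional and 12.34, 10.39, 10.82 and 12.10 in late regressed glands. Only late regressed arrays 2 and 3 were low, while array 1 lay above every mid-late array and array 4 lay among them. The difference was -0.59 (SE 0.37, adjusted p = 0.308), and it turned to 0.21 (0.576) without late regressed arrays 2 and 3. TPM2, the beta tropomyosin, was at 8.60 ± 0.24, 8.61 ± 0.38 and 8.75 ± 0.31 in mid-late, late functional and late regressed glands at its brightest probe set (late regressed minus mid-late 0.14, SE 0.20, adjusted p = 0.667). Its other 6 probe sets, of which 5 were measurable, had differences from -1.0 to -0.13. The only one called was the one not measurable. The mean over all 7, with that dim one included, was lower in late regressed glands by a called -0.34 (0.0429). The direction thus depended on the probe sets used.

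ACTG2, the gamma smooth muscle (enteric) actin, was at 8.61, 8.06, 8.38 and 9.29 in mid-late, 8.46, 8.63, 9.45 and 7.40 in late functional and 8.90, 7.29, 7.32 and 6.71 in late regressed glands. Late regressed arrays 2, 3 and 4 lay below every mid-late array, and array 1 lay among them. The difference was -1.03 (SE 0.49, 2.04-fold, adjusted p = 0.185) and passed only without array 1 (0.0389). The second brightest ACTG2 probe set, also measurable, differed by -0.60 (SE 0.70, adjusted p = 0.6). There late regressed array 2, at 7.42, lay within the mid-late range. PDLIM3, the actinin-associated LIM protein, was at 9.63, 8.26, 8.47 and 8.16 in late regressed glands, the order of arrays of the brightest ACTG2 probe set. PDLIM3 was at 9.63, 9.76, 10.06 and 10.10 in mid-late and 9.82, 9.95, 9.88 and 8.93 in late functional glands. Its late regressed array 1 fell short of the lowest mid-late array by less than the 2 decimals show. PDLIM3 fell by 1.26 (SE 0.31, 2.39-fold, adjusted p = 0.0309). The call was lost in 7 of the 12 fits without 1 array, those without mid-late 1, 2, 3 or 4 (0.0566 to 0.0699) or late regressed 2 (0.0625), 3 (0.075) or 4 (0.053). Without late regressed arrays 2 and 3 the difference was -0.99 (0.176). PDLIM7, a related LIM scaffold, differed by -0.21 (SE 0.14, adjusted p = 0.345). Its dimmer measurable probe set was called lower by -0.56 (SE 0.16, adjusted p = 0.0462), with overlapping groups. That call was kept in 4 of the 12 fits without 1 array (adjusted p up to 0.117 in the others), and the difference was -0.33 (0.289) without late regressed arrays 2 and 3.

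**Figure D2:**
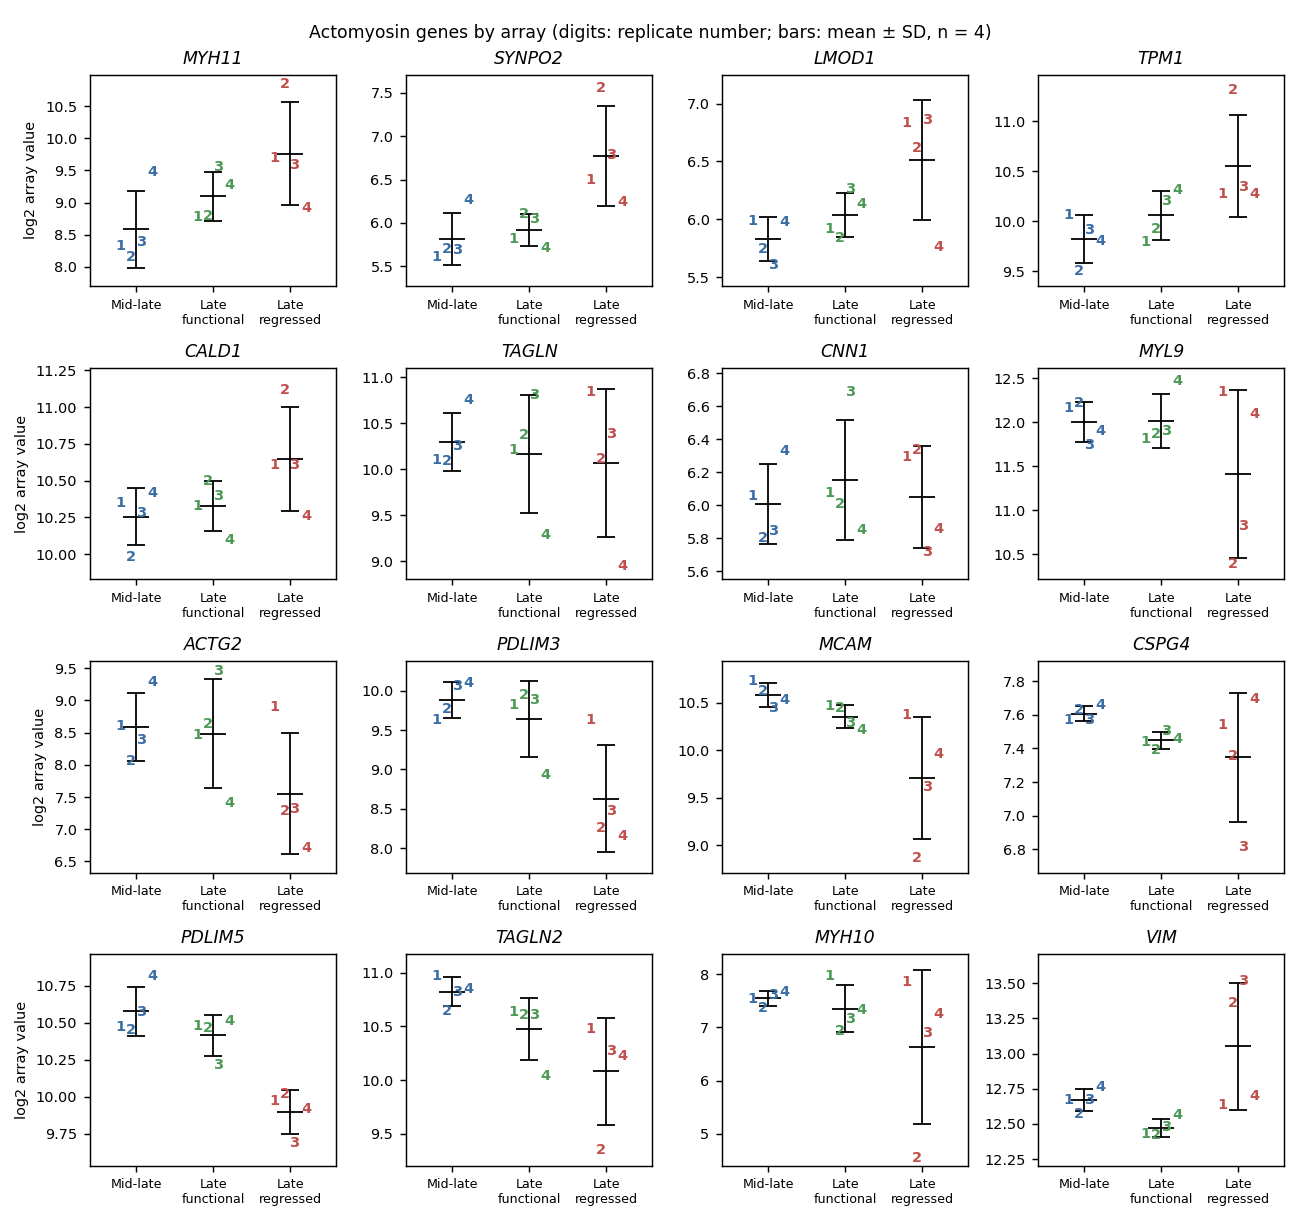
Log2 array values (vertical axes, a scale for each gene) of 16 members in mid-late, late functional and late regressed glands. Each digit is the replicate number of an array, and bars give mean ± SD (n = 4). All 4 late regressed arrays lay below all others for PDLIM5, whereas the low late regressed values were those of arrays 2 and 3 for MYL9 and of array 2 for MYH10.

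Both pericyte genes, which encode surface proteins of vessel wall cells, had lower means in late regressed glands, and MCAM passed. MCAM encodes CD146, an adhesion molecule that endothelial cells carry as well. It was at 10.73, 10.63, 10.44 and 10.53 in mid-late, 10.46, 10.44, 10.29 and 10.21 in late functional and 10.37, 8.86, 9.62 and 9.96 in late regressed glands. At this brightest probe set every late regressed array lay below every mid-late array, array 1 by the smallest step. MCAM fell by 0.88 (SE 0.24, 1.84-fold, adjusted p = 0.0434). The fit kept the call without late regressed array 1 (0.0084), 2 (0.0414) or 4 (0.0416) and lost it in the other 9 fits without 1 array (0.0517 to 0.102). Without late regressed arrays 2 and 3 the difference was -0.42 (0.119). The 3 MCAM probe sets had differences of -0.88, -0.84 and -0.49, and only the brightest was called. The others did not pass (adjusted p = 0.051 and 0.0525) and overlapped mid-late. The overlap came through late regressed array 1 for the probe set at -0.84 and through array 2 for the dimmest. On the dimmest, array 2 was the highest late regressed array, at 9.12.

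CSPG4, the NG2 proteoglycan, was at 7.57, 7.63, 7.57 and 7.66 in mid-late, 7.44, 7.39, 7.51 and 7.46 in late functional and 7.54, 7.35, 6.81 and 7.69 in late regressed glands. The late functional arrays all lay below the mid-late ones by a small step, and the late regressed arrays straddled both groups. The difference of late regressed from mid-late was -0.26 (SE 0.15, adjusted p = 0.265) and 0.01 (0.971) without late regressed arrays 2 and 3. Of 4 measured pericyte markers, MCAM, CSPG4, NOTCH3 (0.24) and KCNJ8 (-0.08), only MCAM was called. Their mean was 8.71, 8.31, 8.16 and 8.72 on late regressed arrays 1 to 4 and 8.70 to 8.77 on mid-late arrays. Among 6 endothelial markers, 2 rose (CLDN5 by 0.70 and TEK by 0.89) and none fell. Over all genes, 13.1% were called in this comparison, 7.6% higher and 5.51% lower. TEK was not called without mid-late array 2 or 3 or late regressed array 3 (0.061 to 0.0663). TEK differed by 0.61 (0.14) without late regressed arrays 2 and 3 and by 0.25 (0.264) with the mean over its probe sets. The others did not pass, with KDR at -0.83 (adjusted p = 0.226) and PECAM1, CDH5 and VWF at 0.19, 0.31 and 0.04. The part of these cell types in the MCAM result was not tested.

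Among the 14 measurable broadly expressed members, 1 fell (PDLIM5), none rose and 13 did not pass, with a median difference of -0.10. The called share was 7.14%, against 16.5% of all measurable genes. PDLIM5, or ENH, ties protein kinases to alpha-actinin on actin bundles. It was at 10.47, 10.45, 10.57 and 10.81 in mid-late, 10.48, 10.46, 10.21 and 10.51 in late functional and 9.97, 10.02, 9.69 and 9.92 in late regressed glands. The late regressed arrays lay below all 8 others and close to one another, including arrays 2 and 3. PDLIM5 fell by 0.68 against mid-late (SE 0.11, 1.60-fold, adjusted p = 0.00833). It was called in all 12 fits without 1 array, and without late regressed arrays 2 and 3 the difference was -0.63 (0.0389). With the NC mean as a covariate, under which no member was called, the difference was -0.70 (0.553). PDLIM5 and MYL4 were also the members called for any difference among the 3 groups (adjusted p = 0.0178 and 0.0354), where 6.65% of all genes were called. The difference of PDLIM5 from late functional glands was -0.52 (adjusted p = 0.14), and it passed only without late regressed array 1 (0.0491).

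The 9 probe sets of PDLIM5 did not agree. The 4 brightest had differences of -0.68, -1.41, -0.92 and -1.03, all without overlap between late regressed and mid-late arrays. The second of them, MmugDNA.20069.1.S1_at, was called (SE 0.32, adjusted p = 0.0227) but not without mid-late array 2, 3 or 4 or late regressed array 3 (0.0522 to 0.0564). The fifth, MmugDNA.24737.1.S1_at, was higher in late regressed glands by 0.74 (SE 0.15, adjusted p = 0.0171) and was called in all 12 fits without 1 array. Without late regressed arrays 2 and 3 these were -0.82 (0.0549) and 0.52 (0.111). The sixth was at -0.34, and the remaining 3 were dim. The mean over all 9 was lower in late regressed than in mid-late glands by -0.37 (0.0462).

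Taken within each array, the fifth minus the second PDLIM5 probe set was -2.51, -3.0, -2.79 and -2.91 in mid-late glands. It was -2.60, -2.08, -2.25 and -2.11 in late functional and -1.59, 0.66, -0.37 and -1.33 in late regressed glands. All late regressed values lay above all others. The highest, 0.66, was on late regressed array 2, the array with the largest 3′ to 5′ difference (2.52), whose part in the value was not tested. The mean rose from -2.80 ± 0.22 in mid-late to -0.66 ± 1.03 in late regressed glands, a difference of 2.14. It was 1.70 without late regressed array 2 and 1.34 without late regressed arrays 2 and 3. This pair was chosen after its values were seen, as the probe sets with the largest opposite differences, so no test is given. Which transcript forms these probe sets detect was not analysed here.

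**Figure D3:**
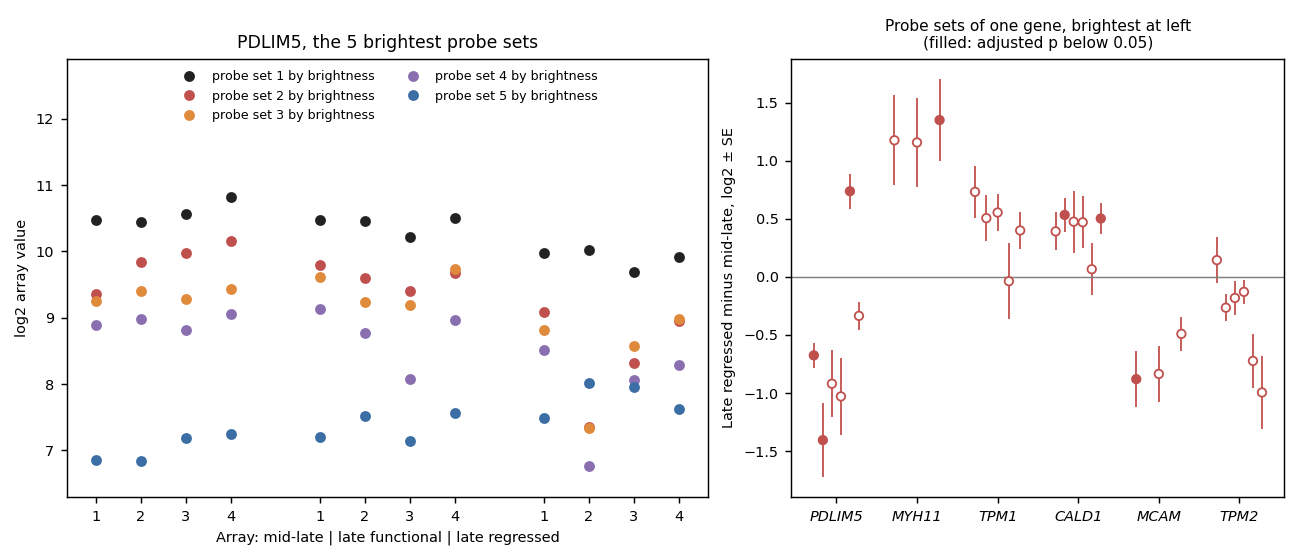
Left, log2 array values of the 5 brightest PDLIM5 probe sets on each array of mid-late, late functional and late regressed glands. Right, log2 difference of late regressed from mid-late (limma estimate ± SE) for the measurable probe sets of 6 members, brightest at left, filled where the adjusted p was below 0.05. The fifth PDLIM5 probe set lies above 0 and the other 5 below it.

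TAGLN2, the broadly expressed transgelin, was at 10.97, 10.65, 10.82 and 10.85 in mid-late, 10.63, 10.61, 10.61 and 10.04 in late functional and 10.48, 9.35, 10.27 and 10.23 in late regressed glands. Both late groups lay wholly below mid-late. The difference of late regressed from mid-late, -0.74 (SE 0.22, adjusted p = 0.0514), just missed the threshold and passed without late functional array 4 (0.0431) or late regressed array 1 (0.0256). It also passed with the low-signal filter (0.0409), with a trended robust prior (0.0461) and when the 3′ to 5′ difference entered the fit, at -0.56 (0.041). Without late regressed arrays 2 and 3 it was -0.47 (0.157). MYL12A, a regulatory light chain of non-muscle myosin, likewise had no late regressed array within the range of either other group, with means of 11.83 ± 0.23, 11.84 ± 0.11 and 11.46 ± 0.14 (-0.38, SE 0.12, adjusted p = 0.0605).

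Neither measurable non-muscle heavy chain passed. MYH10 was at 7.52, 7.36, 7.61 and 7.67 in mid-late, 7.97, 6.94, 7.16 and 7.33 in late functional and 7.85, 4.55, 6.90 and 7.25 in late regressed glands. A single array, late regressed 2, lay near the level of dim probe sets, and it was the array with the largest 3′ to 5′ difference, whose part in the value was not tested. The difference was -0.90 (SE 0.55, adjusted p = 0.29) and 0.01 (0.991) without late regressed arrays 2 and 3. MYH9 was at 9.16 ± 0.10, 9.06 ± 0.05 and 9.35 ± 0.27 (0.19, SE 0.12, adjusted p = 0.307).

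VIM, vimentin, the intermediate filament of mesenchymal cells, was at 12.67, 12.57, 12.67 and 12.76 in mid-late, 12.43, 12.42, 12.48 and 12.56 in late functional and 12.64, 13.36, 13.51 and 12.70 in late regressed glands. Late regressed arrays 2 and 3 were the highest of all and the other two lay at the mid-late level, while late functional glands lay below both groups. The difference of 0.38 (SE 0.17, adjusted p = 0.161) was at 0 to 2 decimals (0.999) without arrays 2 and 3. These are the 2 arrays with the lowest steroid synthesis list. On fibroblast markers the late regressed arrays averaged 8.80, 8.23, 8.60 and 8.76 (mid-late 7.93 to 8.78, late functional 8.27 to 8.57). Of these 7 markers, 3 were called higher, against 7.6% of all genes. These were DCN, DPT and FBLN1, of which only FBLN1 kept its call in all 12 fits without 1 array. The other 4 were below 0 and did not pass: LUM (-0.79), COL1A1 (-0.76), COL3A1 (-0.47) and COL1A2 (-0.18). The median over the list was -0.18. On 8 macrophage markers the late regressed arrays averaged 8.19, 8.05, 9.10 and 7.81 (mid-late 6.78 to 8.28, late functional 8.47 to 8.60), with none called. The part of these cell types in the VIM values was not tested.

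The remaining broadly expressed members did not pass. PDLIM4, a LIM protein of stress fibres, had the largest mean increase, 0.40 (SE 0.38, adjusted p = 0.516), through 8.24 on late regressed array 3 against 6.04 to 7.29 in mid-late glands. ACTN1, an alpha-actinin that cross-links actin, was at 6.44, 5.53, 6.54 and 6.41 in late regressed and 6.17 to 6.46 in mid-late glands (-0.06, SE 0.18, adjusted p = 0.859). ACTG1, the cytoplasmic gamma actin, differed by -0.13 (SE 0.10, adjusted p = 0.403). Its probe set is of the type that can also bind near-identical actins, so its value is uncertain as to the gene. Among the others, ACTN4 (-0.33) had no overlap and passed without late regressed array 1 (0.0442) or after quantile normalization (0.0415). Without late regressed arrays 2 and 3 ACTN4 was at -0.26 (0.294). MYL6 was at -0.33, PDLIM1 at -0.07, TPM3 at -0.04 and PDLIM2 at 0.08.

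**Figure D4:**
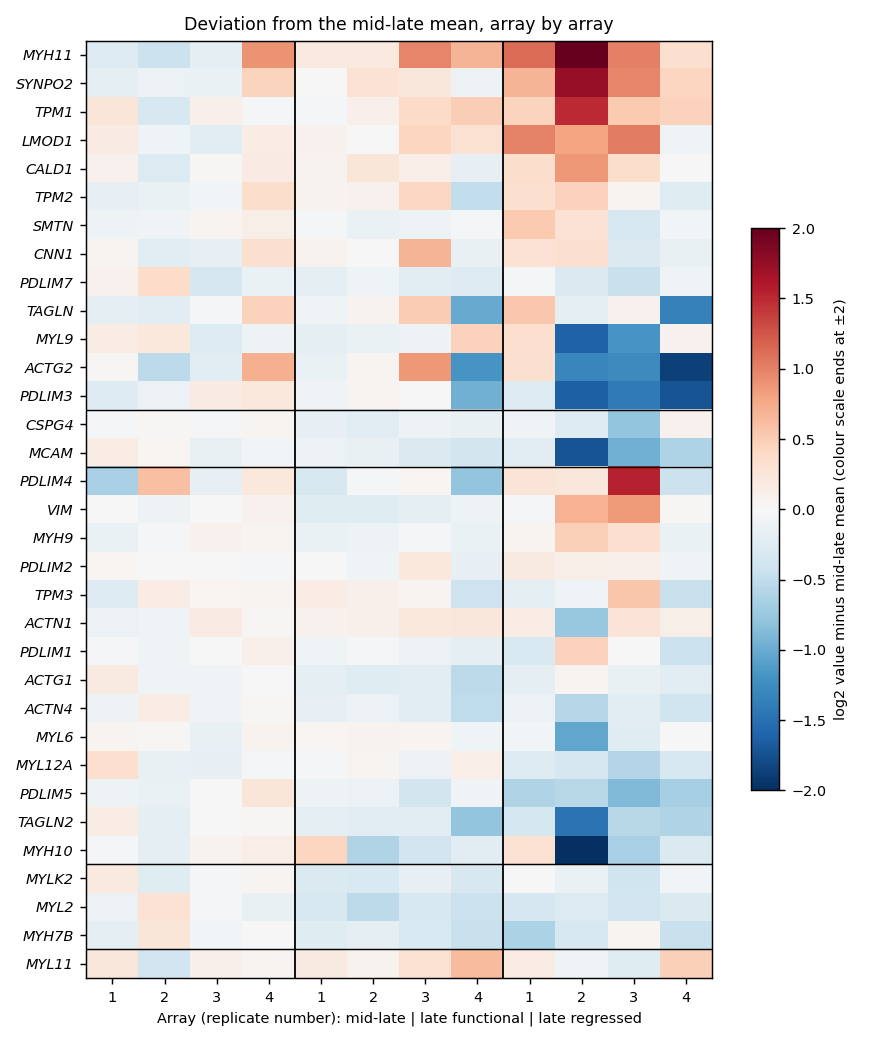
Difference of each array from the mid-late mean (colour, log2, scale ending at ±2) for the 33 measurable members, in rows by role, on the 12 arrays in columns. On late regressed array 2 MYH11 and SYNPO2 are highest and MYH10 is lowest, ACTG2 and PDLIM3 are lowest on late regressed array 4, and the PDLIM5 row is blue on all 4 late regressed arrays.

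Striated muscle genes were mostly at the level of dim probe sets. Of the 20 that were not measurable, 4 were called lower in late regressed glands: MYL4, MYH6 and MYL7, of heart muscle, and ACTN3, of fast skeletal muscle. In mid-late, late functional and late regressed glands MYL4 was at 4.61 ± 0.14, 4.14 ± 0.21 and 4.05 ± 0.15 (late regressed minus mid-late -0.56, SE 0.12, adjusted p = 0.0176). MYH6 was at 4.60 ± 0.22, 4.22 ± 0.19 and 4.12 ± 0.19 (-0.47, SE 0.13, adjusted p = 0.0459). MYL7 was at 4.58 ± 0.08, 4.3 ± 0.06 and 4.24 ± 0.21 (-0.34, SE 0.10, adjusted p = 0.0458). ACTN3 was at 4.20 ± 0.04, 3.99 ± 0.12 and 3.87 ± 0.10 (-0.34, SE 0.07, adjusted p = 0.0214). No late regressed array of any of them reached the mid-late range, and all these means lay below the limit of 4.64. Among all 4388 dim genes 4.88% were called lower. MYL4 was called in all 12 fits without 1 array, ACTN3 in 10 (not without mid-late 1, 0.0544, or 2, 0.0571), MYH6 in 3 (without late functional 3 or 4 or late regressed 4) and MYL7 in 2 (without late regressed 1 or 4). None of them was called without late regressed arrays 2 and 3. The NC probe sets moved in the same direction, their mean being lower in late regressed than in mid-late arrays by -0.14, and the median over all dim genes was -0.08. Of 7 skeletal and heart muscle markers outside the set, 3 were called lower in late regressed glands, against 5.51% of all genes. None of these markers was called higher, and 4 did not pass. The calls were those of TNNT3 (-0.55, adjusted p = 0.0169), CKM (-0.39, 0.0489) and TNNT2 (-0.34, 0.0483). TNNT3 was called in all 12 fits without 1 array but not without late regressed arrays 2 and 3 (-0.50, 0.0929), and its means were 5.20, 4.75 and 4.66 in the 3 groups from mid-late to late regressed. CKM was called in 1 of those 12 fits, without late regressed array 1, and TNNT2 in 1, without late regressed array 4. TNNI2 was at 0.38 (adjusted p = 0.136), and MB, TNNT2, TNNC1 and TNNC2 were not measurable. The list averaged 4.18 to 4.4 in late regressed against 4.41 to 4.51 in mid-late glands. The part of this low-signal shift in the 4 calls was not tested.

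The measurable striated members did not pass. MYH7B, a slow-type heavy chain, was at 7.55 ± 0.18, 7.26 ± 0.11 and 7.21 ± 0.29 in mid-late, late functional and late regressed glands, and late regressed against mid-late passed without late regressed array 3 (0.0475) or with the mean over its probe sets (0.0396). MYL2, the ventricular regulatory light chain, was at 4.94 ± 0.20, 4.54 ± 0.10 and 4.62 ± 0.05. MYLK2, the skeletal light chain kinase, was at 4.65 ± 0.18, 4.38 ± 0.07 and 4.50 ± 0.17. Both were measurable through their mid-late mean alone, and the late means below 4.64 give no level. MYL11, the fast skeletal regulatory light chain by name, was at 9.09 ± 0.26, 9.39 ± 0.24 and 9.17 ± 0.31 at its brighter probe set (late regressed minus mid-late 0.08, adjusted p = 0.796), and its other probe set was dim.

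Late functional against mid-late glands compares the later days, at more than 1.5 ng/ml of serum progesterone, with the baseline. For the baseline no serum progesterone is given. No member was called by limma, against 1.17% of all genes, and 11 members had an unadjusted p below 0.05, against 20.1%. Groups did not overlap for 11 members, against 18.9%, and the median difference was -0.12 over the members and -0.01 over all genes. Leaving aside MYL2 and MYLK2, whose late means were below the limit, the differences of measurable members ran from -0.35 for TAGLN2 (SE 0.22, adjusted p = 0.413) to 0.51 for MYH11 (SE 0.39, adjusted p = 0.506). ACTN1, at 0.16, had the largest mean increase among the broadly expressed members. Late functional array 4 was the array farthest from the mid-late mean for 20 of 33 members (60.6%), against 42% of all measurable genes.

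Late regressed against late functional glands compares serum progesterone below 0.5 ng/ml with more than 1.5 ng/ml on the same days. No member was called by limma, where 0.00708% of all genes were (1 gene), and 9 members had an unadjusted p below 0.05, against 16.1%. PDLIM5, MYL12A, VIM and SYNPO2 had no overlap between these groups, 4 of 54 members against 5.91% of all genes. Their differences were -0.52, -0.38, 0.58 and 0.85 (adjusted p = 0.14, 0.255, 0.251 and 0.245). The largest decrease was that of PDLIM3, -1.02 (SE 0.31, adjusted p = 0.258), which passed without late regressed array 1 (0.0215).

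Switches and regulators of contraction outside the set were read from a list of 49 genes, of which 33 were measured and 29 measurable. In late regressed against mid-late glands, 2 rose, 1 fell and 30 did not pass, so that 3 of 33 were called against 13.1% of all genes, with a median difference of 0.03. PPP1R12C, a targeting subunit of the myosin phosphatase, was at 7.04 ± 0.03, 7.46 ± 0.11 and 7.56 ± 0.16 in the 3 groups in turn (mid-late first, late regressed last) and rose by 0.52 (SE 0.09, 1.44-fold, adjusted p = 0.00901), a call kept in all 12 fits without 1 array. All 8 late glands lay above the 4 mid-late ones.

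ARHGEF12, a guanine nucleotide exchange factor, was at 6.07 ± 0.13, 5.92 ± 0.10 and 5.52 ± 0.27 and fell by 0.55 (SE 0.12, 1.46-fold, adjusted p = 0.0232). It was not called without mid-late array 1 (0.0632) or 3 (0.0519), and without late regressed arrays 2 and 3 the difference was -0.33 (0.12). With the mean over its probe sets it was -0.27 and just missed the threshold (0.05001). MYOCD, the coactivator of smooth muscle genes, was at 4.79 ± 0.37, 5.32 ± 0.51 and 5.13 ± 0.80 and did not pass (adjusted p = 0.568). ACTB, the cytoplasmic beta actin, was at 13.08 ± 0.07, 13.08 ± 0.07 and 13.16 ± 0.27.

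In late functional against mid-late glands, 2 of the 33 regulators rose and none fell, against 1.17% of all genes called. CACNB2, a subunit of voltage-gated calcium channels, was at 5.57, 5.12, 5.77 and 5.60 in mid-late, 6.58, 7.20, 6.70 and 7.04 in late functional and 5.55, 5.47, 5.47 and 6.04 in late regressed glands. Every late functional array lay above all 8 others. It rose over mid-late by 1.37 (SE 0.18, 2.58-fold, adjusted p = 0.0195) and was lower in late regressed than in late functional glands by a difference that did not pass (-1.25, SE 0.18, adjusted p = 0.0672). The first call was lost without mid-late array 1 (0.054) or 2 (0.0508) or late functional array 2 (0.0771) or 3 (0.0792). The second difference passed without late functional array 4 (0.0459) or late regressed array 1 (0.0211) or 4 (0.0291), and also with a trended robust prior (0.0395) or the mean over its probe sets (0.0432). PPP1R12C rose by 0.42 (SE 0.09, 1.34-fold, adjusted p = 0.0477), a call kept in 3 of the 12 fits without 1 array, and in the other 9 the adjusted p was 0.0515 to 0.113.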

How the data were processed

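RNA of 12 corpora lutea (3 groups of 4 arrays) had been hybridised to one-colour Affymetrix rhesus arrays. The deposited table holds log2 values made by the authors with RMA, per the submitters' processing notes, with no version or settings stated there; that the scale is log2 was read from the values. RMA commonly equalises array distributions, which hides changes in the amount of RNA per cell. The labels name no batch or scan date. The labels call the arrays biological replicates. Precision is limited by the number of arrays.

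Of 52865 probe sets, 158 array controls were left out and 52707 tested in R 4.3.3 with limma 3.58.1 (1 lmFit and eBayes fit of group means over 12 arrays), with Benjamini-Hochberg adjustment over all of them. Gene names came from the platform annotation, and 24956 probe sets had 1 symbol. Of 54 members, 53 matched a RefSeq gene of T2T-MMU8v2.0 by Entrez ID with the same symbol, and TAGLN did not match. Single measures per array were compared by exact permutation. The code was tested on simulated data.

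Members and lists (roles, regulators, markers) were chosen with earlier results of these data known, so their directions are not independent evidence. Levels and differences are given for every called member, a fixed panel of 17 genes (ACTA2, MYLK and DES not measured), and per role the members with the largest increase and decrease in each comparison among measurable ones. LMOD1, ACTG2, MYL12A, ACTN4, ACTG1, MYOCD and ACTB, and the members and markers given by their difference alone, were added after their values were seen. Alternatives comprised a low-signal filter, median centring, quantile normalization, only the groups compared, array weights, covariates (3′ to 5′ difference, NC mean), a trended robust prior, the mean over probe sets, a 2-fold minimum, the replicate number as a block, and arrays left out. Correlations of same-numbered arrays gave no clear pairing, though they cannot exclude one. Values of some regulators counted in the text are not reported here.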

Additional observations from a re-analysis of the deposited data

Results flagged for a closer look

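A value was listed where, in a group of 4 arrays, the gap from the highest or lowest array to its nearest neighbour was too large a share of the group's range by Dixon's criterion at the 95% level, which chance alone meets in about 1 of 20 groups. Of 87 groups examined (27 named members and 2 array measures in 3 groups), 12 met it.

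Among late regressed arrays, array 2 stood apart as the lowest for ACTN1 (5.53) and the highest for TPM1 (11.32), and its 3′ to 5′ difference was the highest (2.52). Late regressed array 3 had the lowest NC mean (3.48). Among late functional arrays, array 4 was the lowest for PDLIM3 (8.93) and TAGLN2 (10.04) and the highest for MYL9 (12.47). Late functional array 3 was the lowest for PDLIM5 (10.21) and the highest for MYLK2 (4.48). Among mid-late arrays, array 4 was the highest for SYNPO2 (6.27), array 1 the highest for MYH6 (4.92) and array 3 the lowest for MYL4 (4.41).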

How the results depend on the processing

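For late regressed against mid-late, 8 members were called; 3 were called with only the groups compared in the fit, 4 with array weights, 1 with a 2-fold minimum, 0 with the NC mean as a covariate, and 1 once late regressed arrays 2 and 3 were left out. The low-signal filter, median centring and quantile normalization each called 6, which split into 2 higher and 4 lower, 1 and 5, and 0 and 6. Without 1 array the count ran from 2 to 11. For late functional against mid-late, 0 were called, but 2 with only the groups compared, 4 with array weights and 2 without late regressed arrays 2 and 3, all lower; without 1 array it stayed at 0. For late regressed against late functional, 0 to 2 were called without 1 array. For any difference among the groups, 2 were called, 4 with the mean over probe sets and 1 without late regressed arrays 2 and 3, and 1 to 7 without 1 array. TPM2 turned from 0.14 to -0.34 with the mean over probe sets. The causes were not tested, beyond the fewer arrays in some fits. The NC mean was lower in both late groups, so as a covariate it cannot be told apart from the group in full. With the replicate number as a block, 7 members were called for late regressed against mid-late (MYL7 lost). PPP1R12C (0.0985) and CACNB2 (0.0528) then lost their calls in late functional against mid-late glands. Same-numbered arrays correlated from -0.122 to 0.296, and only 4 of 12 correlated best with their own number. These correlations cannot exclude a pairing, and none was used in the main fit. Values below 4.64 are near background and show no level.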
